A study of Homo sapiens with 42 samples.

Results

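A set of 9 genes of the NRF2 programme and of redox defence was followed in human lung fibroblasts that had entered senescence by an oncogene or by DNA damage and had then lost COPB2, a subunit of the COPI vesicle coat. They were chosen by name, out of 28266 symbols in the deposited count table: NQO1, HMOX1, GCLM, GCLC, TXNRD1, SRXN1, OSGIN1, SOD2 and PRDX6. The choice rested on their roles, with earlier results of these data known. PRDX6 was also singled out for answering differently in the 2 senescence models, so its senescence responses are given as values with no test and are in no count. The 42 poly(A) RNA-seq libraries fall into 12 groups, 3 libraries in each of the 6 ER:RAS groups and 4 in each of the 6 IMR90 groups. IMR90 is an established strain of human fetal lung fibroblasts, and ER:RAS cells are IMR90 cells carrying a retroviral fusion of oncogenic RAS to an oestrogen receptor domain that 4-hydroxytamoxifen (4OHT) switches on. ER:RAS cells received 100 nM 4OHT, which starts oncogene-induced senescence (OIS), or DMSO. IMR90 cells received 50 µg/ml bleomycin, a DNA-breaking drug, for 24 h, or DMSO. After 7 days, 1 µg/ml doxycycline was added in every group to induce a control shRNA, COPB2 shRNA 1 or COPB2 shRNA 2, and RNA was taken 72 h later, on day 10. Every library thus comes from 1 fibroblast strain carrying an inducible shRNA, the DMSO controls included, and OIS was made only in ER:RAS cells and bleomycin senescence only in IMR90 cells, so the inducer and the cell line cannot be told apart.

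NRF2, encoded by NFE2L2, is a transcription factor that KEAP1 keeps short-lived by handing it to a ubiquitin ligase. Oxidants and electrophiles modify KEAP1, NRF2 then accumulates, pairs with a small MAF protein and binds antioxidant response elements in front of genes for glutathione synthesis, thioredoxin recycling, quinone reduction and NADPH supply, while BACH1 competes for the same elements and is best known for holding HMOX1 down. SOD2, the manganese superoxide dismutase of mitochondria, is more widely known as a target of NF-kB than of NRF2.

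The promoter stretches of GCLM and TXNRD1 are shown because these were the members whose windows held the core of an antioxidant response element, TGACNNNGC on either strand. Windows of 250 bases before to 50 after each annotated start came from RefSeq (GRCh38.p14) and covered 7 of the 9 genes in 11 windows, with none for HMOX1 and PRDX6. The match stands in capitals, and both sequences read 5′ to 3′ on the strand of the gene.
GCLM, chr1:93909431-93909490, minus strand: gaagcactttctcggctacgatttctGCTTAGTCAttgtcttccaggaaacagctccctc
TXNRD1, second start, chr12:104286904-104286963, plus strand: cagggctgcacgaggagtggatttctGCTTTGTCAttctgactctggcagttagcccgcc
The match began 34 bases before the start of GCLM and 102 bases before that of TXNRD1. The search itself fixed 6 of the 9 bases of a match, so that the identity of the 2 stretches at 8 of these 9 bases is mostly set by the choice. The 7 bases directly before the match were identical too. The TXNRD1 stretch is 1 of 3 matches of that gene, the other 2 being in the window of its first start. The same letters occurred in 13.35% of 35116 windows, so a match is a description and not a binding site, and the other 5 genes with a window held no such letters there, which says nothing about the factor. The AP-1 letters TGACTCA or TGAGTCA, present in 4.95% of windows, occurred in that of OSGIN1 alone among the members and did not overlap the matches above.

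Total counts ran from 13148194 to 23597310 per library, and the members had between 51 and 69614 counts in a library. COPB2 stood at 267 to 620 CPM (reads of the gene per 1000000 reads of the library, scaled by TMM) in the 14 control-shRNA libraries and at 33.9 to 122 CPM in the 28 COPB2 shRNA libraries. CDKN1A, the cell-cycle inhibitor p21, reached 2674 to 7330 CPM with 4OHT against 547 to 1221 with DMSO, and 2043 to 4578 CPM with bleomycin against 320 to 936. The summed level of 8 fibroblast markers was 14448 to 24409 CPM in OIS, 14826 to 23949 CPM in ER:RAS cells with DMSO, 7887 to 20095 CPM with bleomycin and 17231 to 25451 CPM in IMR90 cells with DMSO. Taken singly, with the control shRNA, 6 of the 8 markers were called lower and 1 higher in OIS (median log2 fold change −1.62), and 5 lower and none higher with bleomycin (median −0.83). Markers of other cell types stayed low in sum, at 13.7 CPM or less for 3 endothelial, 60.2 CPM or less for 5 epithelial and 120 CPM or less for 4 leukocyte genes, with KRT5 and SFTPC at 0 in ER:RAS cells. The leukocyte sum was higher in both senescent states (81.7 to 120 against 17.03 to 43.4 CPM in OIS, and 54.4 to 105 against 12.2 to 29.1 CPM with bleomycin), and so was the endothelial sum in OIS (8.64 to 13.7 against 1.11 to 4.44 CPM). The epithelial sum in OIS was lower, with overlap, at 12.7 to 32.04 against 26.8 to 60.2 CPM. Their part in the results was not tested. Replicate 4 of the 3 bleomycin groups stood apart in inflammatory genes, and results that rest on it are given with and without it.

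In both senescence models the quinone reductase NQO1 and the sulfiredoxin SRXN1 rose by 1.17 to 1.57 on the log2 scale with the control shRNA, GCLM rose by 1.87 in OIS, and HMOX1 and GCLC were called in neither model, HMOX1 only under some of the alternatives given with its values. Of the 8 members tested, 3 rose (SRXN1, GCLM and NQO1) and 1 fell (OSGIN1) in OIS, in a comparison in which 35.7% of 14297 genes were called, 15.5% higher and 20.2% lower. With bleomycin 3 of 8 rose (NQO1, SRXN1 and TXNRD1) and none fell, where 31.2% of 14783 genes were called, 15.4% higher and 15.8% lower. The libraries of 4 members, all higher, did not overlap between DMSO and OIS (NQO1, SRXN1, GCLM and TXNRD1), where 38.5% of genes did not overlap in either direction, and those of 3, all higher, did not overlap with bleomycin (28% of genes). The median log2 fold change of the 8 members was 0.64 in OIS and 0.57 with bleomycin, against −0.08 and −0.01 over all genes tested. These calls come from edgeR's quasi-likelihood test with Benjamini-Hochberg adjustment over all genes of the fit, at an adjusted p under 0.05. In bulk RNA, a change in the make-up of the cells and a change of RNA per cell cannot be told apart.

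**Figure D1:**
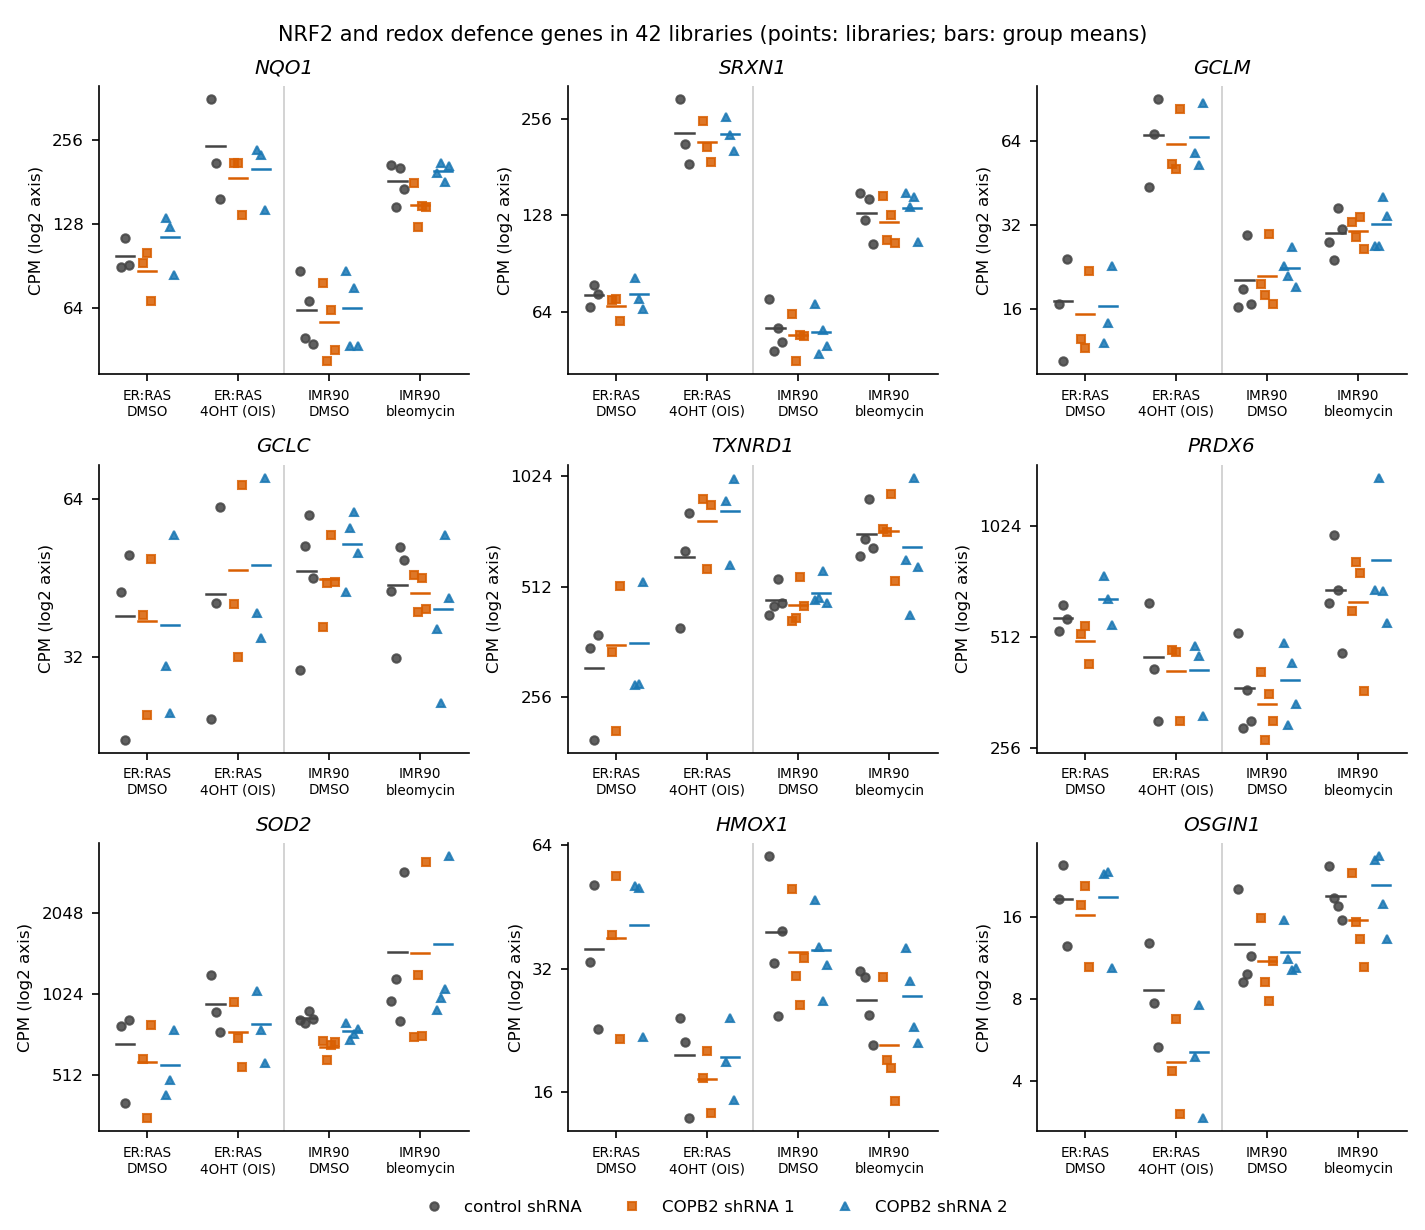
Level of the 9 genes in each of the 42 libraries, in CPM on a log2 axis, by line and treatment (left to right) and by shRNA (colour and symbol), with a bar at each group mean. NQO1 and SRXN1 libraries with 4OHT or bleomycin lay above the DMSO libraries of the same line and shRNA, and 3 bleomycin libraries of SOD2, all replicate 4, lay at 2894 to 3308 CPM.

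NQO1 uses NADPH to reduce quinones to hydroquinones and is a standard readout of NRF2 activity. In ER:RAS cells with the control shRNA it measured 90.4, 114 and 91.7 CPM with DMSO and 358, 211 and 158 CPM with 4OHT. Every OIS library lay above every DMSO library, with replicate 1 of OIS the farthest out, and the log2 fold change was 1.19 (SE 0.27, adjusted p = 0.0025). In IMR90 cells NQO1 measured 87.4, 50.3, 68.2 and 47.7 CPM with DMSO and 209, 148, 203 and 172 CPM with bleomycin. These groups did not overlap either, and the log2 fold change was 1.50 (SE 0.23, adjusted p = 3e-05). Ordered by level, NQO1 was lowest in IMR90 with DMSO, higher in ER:RAS with DMSO and highest in the 2 senescent states, whose libraries overlapped each other. The difference between the DMSO groups of the 2 lines passed no test.

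SRXN1 encodes sulfiredoxin, which repairs overoxidised peroxiredoxins. It measured 66.1, 77.7 and 72.9 CPM with DMSO and 295, 213 and 184 CPM in OIS. All 3 OIS libraries lay far above the highest DMSO library, and the log2 fold change of 1.57 (SE 0.17, adjusted p = 4.3e-06) had the smallest SE among the members in OIS. With bleomycin SRXN1 went from 70.3, 48.4, 57.0 and 51.7 CPM to 150, 124, 144 and 104 CPM, again with no overlap, 1.17 on the log2 scale (SE 0.16, adjusted p = 1.4e-05).

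TXNRD1, the cytosolic thioredoxin reductase, keeps thioredoxin reduced at the expense of NADPH. With bleomycin it measured 621, 689, 889 and 650 CPM against 428, 452, 538 and 463 CPM with DMSO. The groups did not overlap and the log2 fold change was 0.56 (SE 0.20, adjusted p = 0.032), a call that was lost without DMSO replicate 1, 2 or 4 (adjusted p = 0.062, 0.060 and 0.066), without bleomycin replicate 3 (adjusted p = 0.11) and with no filter on low counts (adjusted p = 0.057). In ER:RAS cells TXNRD1 measured 349, 196 and 377 CPM with DMSO and 394, 639 and 811 CPM in OIS. The groups did not overlap here either, yet at 0.90 on the log2 scale (SE 0.43, adjusted p = 0.12) the difference did not pass the test. It passed with DESeq2's size factors (adjusted p = 0.049) and with DESeq2's Wald test (adjusted p = 0.029). It also passed after a correction of each library for the GC content and length of transcripts, an alternative added after the data had been seen (log2 fold change 1.11, adjusted p = 0.00021). That correction called 7882 of 14297 genes in OIS and 6878 of 14783 with bleomycin, in place of 5098 and 4614. TXNRD1 overlaps EID3, also in the table, so reads from shared stretches cannot be assigned to it with certainty.

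GCLM and GCLC are the modifier and catalytic subunits of glutamate-cysteine ligase, which makes the first and limiting step of glutathione synthesis. GCLM measured 16.7, 10.5 and 24.1 CPM with DMSO and 43.9, 67.8 and 90.01 CPM in OIS. The groups did not overlap, and its log2 fold change of 1.87 (SE 0.44, adjusted p = 0.0033) was the largest among the members in this comparison. With bleomycin GCLM measured 27.8, 24.0, 36.8 and 30.9 CPM against 16.3, 18.9, 29.5 and 16.7 CPM. These groups overlapped through DMSO replicate 3, and the log2 fold change of 0.52 (SE 0.20, adjusted p = 0.051) stood at the threshold. It passed without DMSO replicate 3 (0.77, adjusted p = 0.0047), without bleomycin replicate 2 (0.61, adjusted p = 0.037) and with DESeq2's size factors (adjusted p = 0.037), Wald test (adjusted p = 0.027) or the GC and length correction (adjusted p = 0.038).

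GCLC was called in neither model. It measured 42.6, 22.4 and 50.0 CPM with DMSO against 24.5, 40.5 and 61.8 CPM in OIS (log2 fold change 0.04, SE 0.49, adjusted p = 0.96). With bleomycin the values were 42.7, 31.9, 51.9 and 48.9 CPM against 30.3, 52.0, 59.6 and 45.2 CPM (log2 fold change −0.13, SE 0.21, adjusted p = 0.70). The groups overlapped widely in both models, and in OIS its SE was the largest among the members.

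HMOX1, the inducible heme oxygenase, opens the heme ring and is a classic target of repression by BACH1. It measured 33.1, 51.2 and 22.8 CPM with DMSO and 24.3, 21.1 and 13.8 CPM in OIS, and 60.0, 33.02, 24.5 and 39.5 CPM with DMSO against 31.5, 30.4, 24.6 and 20.9 CPM with bleomycin. The groups overlapped in both models, and neither difference passed the test: the log2 fold change was −0.95 (SE 0.36, adjusted p = 0.052) in OIS and −0.57 (SE 0.28, adjusted p = 0.13) with bleomycin. In OIS it was −1.12 without DMSO replicate 3, where it passed (adjusted p = 0.045), and −0.57 without DMSO replicate 2 (adjusted p = 0.30). With bleomycin it was −0.29 without DMSO replicate 1 (adjusted p = 0.46). After the GC and length correction HMOX1 passed in both models (−1.02, adjusted p = 0.00014, and −0.52, adjusted p = 0.026). The corrected fits called 7882 of 14297 genes in OIS and 6878 of 14783 with bleomycin.

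OSGIN1, oxidative stress induced growth inhibitor 1, had few counts beside the other members. It measured 18.6, 24.9 and 12.5 CPM with DMSO and 12.9, 7.7 and 5.3 CPM in OIS. Only OIS replicate 1 and DMSO replicate 3 overlapped, and the log2 fold change was −1.21 (SE 0.42, adjusted p = 0.035). This call was lost without DMSO replicate 1 (adjusted p = 0.10) or 2 (−0.92, adjusted p = 0.16), without OIS replicate 2 (adjusted p = 0.14) or 3 (−0.91, adjusted p = 0.16), with DESeq2's size factors (adjusted p = 0.084) or Wald test (adjusted p = 0.055), with no filter (adjusted p = 0.059) and in a fit of the 6 libraries alone (adjusted p = 0.091). After the GC and length correction, which called 7882 of 14297 genes, it was −1.34 (adjusted p = 4.8e-06). With bleomycin OSGIN1 measured 24.7, 18.9, 17.6 and 15.6 CPM against 20.3, 9.3, 9.9 and 11.5 CPM, 0.57 on the log2 scale (SE 0.29, adjusted p = 0.15). DMSO replicate 1 alone reached into the bleomycin group, and without it the value was 0.89 (adjusted p = 0.025). NECAB2 overlaps OSGIN1 in the annotation.

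SOD2 turns superoxide into hydrogen peroxide in mitochondria. It measured 776, 403 and 818 CPM with DMSO and 1204, 875 and 737 CPM in OIS, with overlap (log2 fold change 0.37, SE 0.37, adjusted p = 0.48, and 1.10 with an adjusted p of 0.081 after the GC and length correction). With bleomycin it measured 965, 1164, 809 and 2894 CPM against 820, 800, 880 and 825 CPM. Bleomycin replicate 4 decided the log2 fold change of 0.78 (SE 0.46, adjusted p = 0.21), which was 0.24 (adjusted p = 0.35) without replicate 4 of the 3 bleomycin groups. The table also holds ACAT2, SOD2-OT1 and WTAP, which overlap SOD2 in the annotation.

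The same replicate stood apart under each shRNA. SOD2 was 2894, 3168 and 3308 CPM in replicate 4 of the control, shRNA 1 and shRNA 2 groups and 708 to 1197 CPM in the other 9 bleomycin libraries. The chemokine CXCL8 was at 1145 to 8645 CPM in these 3 libraries against 37.0 to 219 CPM in the other 9, and IL6 was at 187 to 967 against 7.36 to 44.04 CPM. IL1B was at 89.0 to 591 against 8.97 to 40.7 CPM, and TNFAIP3, a feedback inhibitor of NF-kB, at 51.2 to 72.5 against 8.15 to 20.1 CPM. NFKBIA, which encodes the NF-kB inhibitor IκBα, overlapped, at 97.5 to 142 against 53.8 to 112 CPM. HMOX1 was lowest of its group in replicate 4 under each shRNA. In OIS, IL1B reached 6508 to 10120.4 CPM with the control shRNA against 0.815 to 0.962 CPM with DMSO. The log2 fold change of SOD2 there was 0.37 (SE 0.37) and was not called. The other inflammatory genes are not given for OIS, and a link between IL1B and SOD2 was not tested.

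PRDX6, a peroxiredoxin that reduces phospholipid hydroperoxides with glutathione, measured 532, 624 and 571 CPM with DMSO and 634, 419 and 303 CPM in OIS. The log2 fold change was −0.46 (SE 0.23), with 1 OIS library above and 2 below the DMSO group. It was −0.71 without OIS replicate 1 and −0.20 without OIS replicate 3. In IMR90 cells it measured 524, 291, 367 and 304 CPM with DMSO and 634, 965, 687 and 465 CPM with bleomycin, a log2 fold change of 0.86 (SE 0.28). DMSO replicate 1 reached into the bleomycin group. The OIS response minus the bleomycin response was −1.24 (SE 0.42), and with COPB2 shRNA 1 and 2 the log2 fold changes were −0.36 and −0.72 in OIS and 0.89 and 1.03 with bleomycin.

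**Figure D2:**
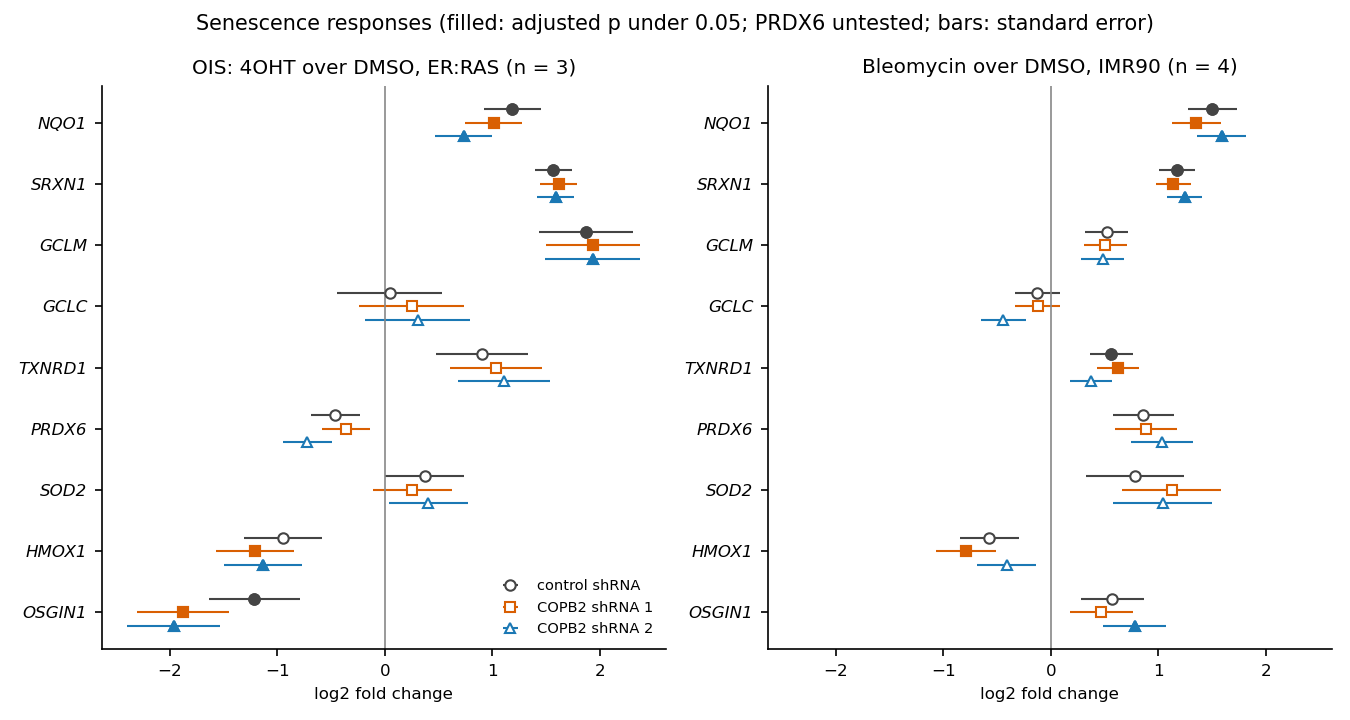
Log2 fold change of each gene in senescent over DMSO-treated cells, with the control shRNA and each COPB2 shRNA, in OIS (left, n = 3) and with bleomycin (right, n = 4), bars being the SE and filled symbols an adjusted p under 0.05. PRDX6 is drawn open throughout because its responses were not tested. GCLM lies near 1.9 in OIS and near 0.5 with bleomycin, and OSGIN1 lies between −1.96 and −1.21 in OIS and between 0.47 and 0.78 with bleomycin.

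The responses of 2 members differed between the models when the difference itself was tested across all 42 libraries, in a fit that called 20.3% of 15299 genes. GCLM answered more strongly in OIS, by 1.42 on the log2 scale (SE 0.41, adjusted p = 0.012). The difference for OSGIN1 was −1.71 (SE 0.53, adjusted p = 0.019), with a response below 0 in OIS and above 0 with bleomycin. The GCLM difference did not pass without OIS replicate 3 (1.16, adjusted p = 0.051) or in a fit of the 14 libraries alone (adjusted p = 0.053), and that of OSGIN1 did not pass without OIS replicate 3 or DMSO replicate 2 of ER:RAS (−1.45 and −1.44, adjusted p = 0.064 for both). The remaining 6 members tested gave differences between −0.32 (SOD2) and 0.48 (SRXN1) with adjusted p from 0.19 to 0.81. The SE was 0.25 for SRXN1 and 0.38 for NQO1, whose difference of −0.23 became −0.62 (adjusted p = 0.29) without OIS replicate 1, so small differences were not detectable with these libraries.

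With COPB2 depleted, SRXN1, GCLM and NQO1 rose in OIS, and SRXN1 and NQO1 rose with bleomycin, under either hairpin. These comparisons share no library with those of the control shRNA, but they share 1 fit per line. Same-numbered libraries of the control and COPB2 shRNAs also deviated together in IMR90 cells, with r of 0.61 to 0.91 with bleomycin and 0.18 to 0.94 with DMSO. In ER:RAS cells this r ran from −0.79 to 0.95. The comparisons are thus not independent repeats. Under each COPB2 shRNA 3 of 8 members rose (SRXN1, GCLM and NQO1) and 2 fell (OSGIN1 and HMOX1) in OIS, where 36.9% of genes were called with either hairpin. With bleomycin 3 rose and 1 fell under shRNA 1 (35.2% of genes called) and 3 rose under shRNA 2 (40% called).

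In OIS under shRNA 1 and shRNA 2, SRXN1 rose by 1.62 and 1.59 on the log2 scale (adjusted p = 3e-06 and 3.6e-06) and GCLM by 1.94 and 1.93 (adjusted p = 0.0025 and 0.0026). NQO1 rose by 1.01 and 0.73 (adjusted p = 0.0068 and 0.040). The shRNA 2 call of NQO1 was lost in 4 of its 6 fits with 1 library left out (without 4OHT replicate 1 or 2 or DMSO replicate 2 or 3, adjusted p 0.078 to 0.14), with no filter (adjusted p = 0.051), in a fit of the 6 libraries alone (adjusted p = 0.061) and after the GC and length correction (adjusted p = 0.13). TXNRD1 measured 887, 572 and 854 CPM with shRNA 1 and 873, 585 and 1002 CPM with shRNA 2 in OIS, above its DMSO libraries of 341, 208 and 515 CPM and of 277, 277 and 526 CPM. Its log2 fold changes of 1.03 and 1.11 (adjusted p = 0.073 and 0.055) passed once replicate numbers, which paired the libraries in these 2 comparisons, entered as a block (1.11 and 1.14, adjusted p = 0.0018 and 0.0015). The block called 7612 and 7588 of 14297 genes, in place of 5272 and 5280.

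OSGIN1 measured 4.4, 6.8 and 3.0 CPM with shRNA 1 and 4.9, 7.6 and 2.9 CPM with shRNA 2 in OIS. The DMSO libraries of the same hairpins stood at 17.7, 20.9 and 10.5 and at 23.1, 23.5 and 10.4 CPM. No OIS library overlapped them, and the calls held with any 1 library left out, at −1.88 on the log2 scale with shRNA 1 (SE 0.43, adjusted p = 0.0028) and −1.96 with shRNA 2 (SE 0.43, adjusted p = 0.0021). HMOX1 measured 17.4, 20.1 and 14.3 CPM with shRNA 1 and 18.99, 24.3 and 15.3 CPM with shRNA 2 in OIS, against 38.7, 53.9 and 21.5 and 50.7, 50.2 and 21.7 CPM with DMSO. It fell by 1.21 (adjusted p = 0.015) and 1.13 (adjusted p = 0.022) on the log2 scale. These HMOX1 calls were lost in 4 of 6 fits that left out 1 library for each hairpin, those without DMSO replicate 1 or 2 or 4OHT replicate 1 or 3 (adjusted p 0.054 to 0.12), and for shRNA 2 also with DESeq2's size factors (adjusted p = 0.057) and in a fit of the 6 libraries alone (adjusted p = 0.056).

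With bleomycin, NQO1 rose by 1.36 and 1.59 (adjusted p = 7.3e-05 and 1.2e-05) and SRXN1 by 1.14 and 1.24 (adjusted p = 1.4e-05 and 4.9e-06) under shRNA 1 and shRNA 2. Each further call held with 1 hairpin. HMOX1 fell under shRNA 1 (−0.79, adjusted p = 0.030), from 50.0, 30.7, 26.1 and 33.9 CPM to 30.5, 19.1, 18.4 and 15.2 CPM, and lost the call in 4 of 8 fits without 1 library (DMSO replicate 1 or bleomycin replicate 2, 3 or 4, adjusted p 0.059 to 0.12). TXNRD1 rose under shRNA 1 (0.63, adjusted p = 0.016), a call lost without DMSO replicate 1 (adjusted p = 0.0503) or bleomycin replicate 3 (adjusted p = 0.066). OSGIN1 rose under shRNA 2 (0.78, adjusted p = 0.038), a call lost in 5 of 8 fits without 1 library (DMSO replicate 2, 3 or 4 or bleomycin replicate 1 or 2, adjusted p 0.073 to 0.11). Whether these 3 differ between hairpins was not tested.

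None of the 8 members tested passed the test of COPB2 depletion itself. PRDX6 is left out of these counts because its choice drew on the same control libraries. There were 8 comparisons of a COPB2 shRNA with the control shRNA, in both lines and all 4 states. In each, 0 of the 8 members passed edgeR's test or DESeq2's Wald test, and 0 had an unadjusted p under 0.05 in edgeR's. The share of genes that edgeR called was itself small: 0.14% and 0.224% in OIS for shRNA 1 and 2, 0.00676% and 0.0744% with bleomycin, 0.00699% for each in ER:RAS cells with DMSO and 0.00676% for each in IMR90 cells with DMSO. DESeq2's test called 51 and 70 of 14297 genes in OIS and 1 and 36 of 14783 with bleomycin. With DMSO it called 1 and 3 genes in ER:RAS cells and 1 and 2 in IMR90 cells. Log2 fold changes ran from −0.88 to 0.40, with SEs of 0.16 to 0.49, so small changes were not detectable with this number of libraries. The depletion effect in senescent minus that in DMSO-treated cells was tested for each shRNA and line. In these 4 comparisons 0 of the same 8 members passed edgeR's or DESeq2's test, and 0 had an unadjusted p under 0.05 in edgeR's. EdgeR called 0% of all genes in each. DESeq2's test called 8 and 13 of 14297 genes for shRNA 1 and 2 in ER:RAS cells and 0 of 14783 for either in IMR90 cells.

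OSGIN1 gave the lowest depletion value. In OIS it went from 12.9, 7.7 and 5.3 CPM with the control shRNA to 4.4, 6.8 and 3.0 CPM with shRNA 1 and 4.9, 7.6 and 2.9 CPM with shRNA 2, which overlap it. The log2 fold changes were −0.88 (SE 0.42) and −0.77 (SE 0.42), and the lower unadjusted p was 0.055. With both the GC and length correction and the replicate block the values were −0.66 and −0.58 and passed (adjusted p = 0.031 and 0.041), in an alternative added after the data had been seen. That alternative called 326 and 564 of 14297 genes, in place of 20 and 32. OSGIN1 and SRXN1 values were below 0 in 7 of the 8 comparisons and TXNRD1 values above 0 in 6, in comparisons that share their control libraries within a state.

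SRXN1 values under depletion lay between −0.15 and 0.05, with SEs of 0.16 to 0.17, and those in OIS were 0.11 and 0.19 without replicate 1 of the control shRNA. NQO1 ran from −0.38 to 0.18. Its 2 values in OIS, −0.38 and −0.28, rested on replicate 1 of the control shRNA at 358 CPM and were 0.00 and 0.10 without it. SOD2 in IMR90 cells with DMSO was the only member whose libraries did not overlap in a depletion comparison: 684, 583, 662 and 678 CPM with shRNA 1 and 799, 690, 727 and 759 CPM with shRNA 2 lay below 820, 800, 880 and 825 CPM. Of all genes in these comparisons, 1.68% and 1.54% did not overlap in either direction, and the SOD2 values of −0.34 and −0.14 (SE 0.45 for both) did not pass the test. Replicate numbers paired the libraries in these 2 comparisons, and with the block the values were −0.35 and −0.15 (SE 0.33 for both, adjusted p = 1 for both), every pair being lower with the COPB2 shRNA. With bleomycin the SOD2 effect turned with replicate 4: it was 0.54 and 0.66 without the control library of that number and −0.74 and −0.57 without the shRNA library. PRDX6 ran from −0.24 to 0.26, and its value of 0.26 for shRNA 2 with bleomycin became −0.10 without replicate 2 of that group, which stood at 1381 CPM.

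**Figure D3:**
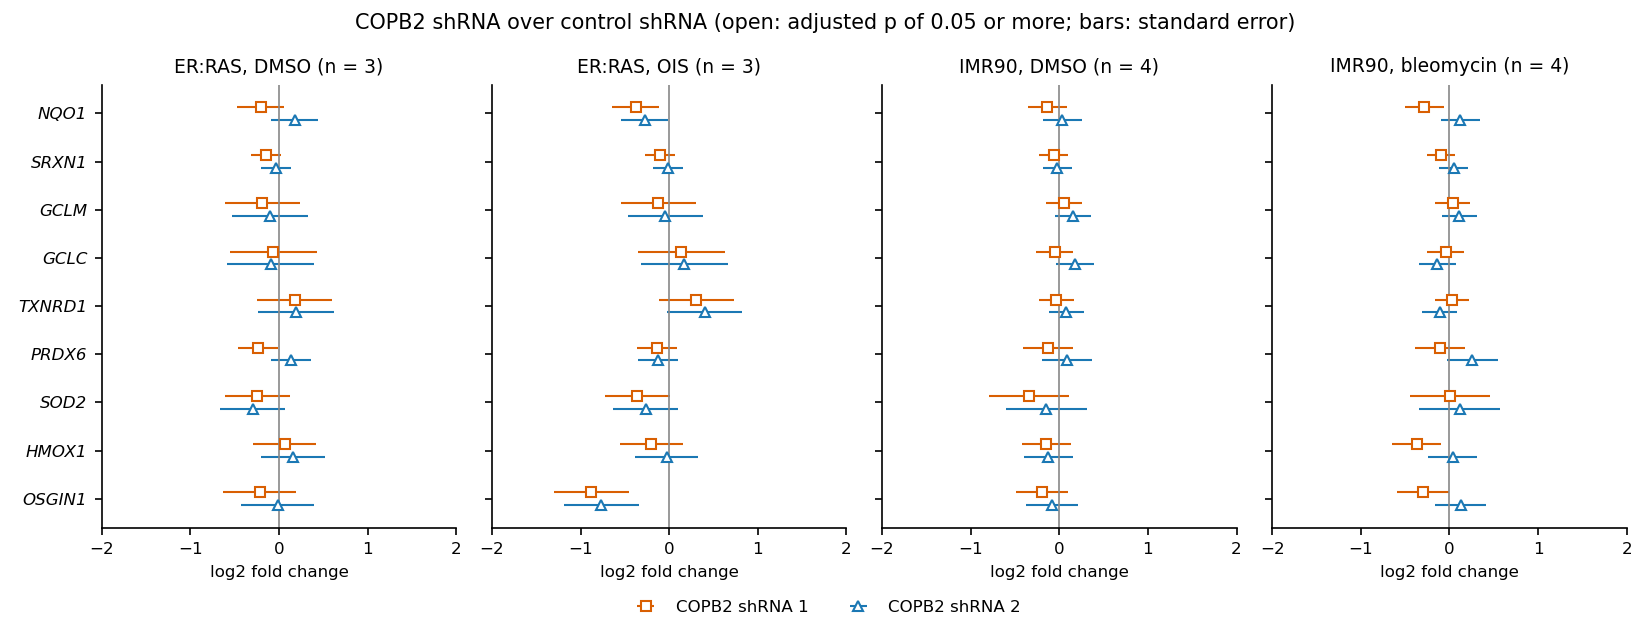
Log2 fold change of each gene with COPB2 shRNA 1 (squares) and 2 (triangles) over the control shRNA in the 4 states, bars being the SE. Every symbol is open, an adjusted p of 0.05 or more, and values lie between −0.88 and 0.40.

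No member passed the test between the 2 lines before senescence. Between ER:RAS and IMR90 cells with DMSO and the control shRNA, 0 of 8 members passed edgeR's test (0.346% of genes called). None passed DESeq2's test either, which called 165 of 15299 genes. Of the 8 members, 2 had an unadjusted p under 0.05 in edgeR's test. The libraries of these 2 did not overlap, as was so for 12.7% of genes. The values were 0.64 for NQO1 on the log2 scale (SE 0.27, adjusted p = 0.37) and −0.61 for TXNRD1 (SE 0.30, adjusted p = 0.42). PRDX6 is left out of these counts because its choice drew on the same DMSO libraries, and its difference was 0.63 (SE 0.29).

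Within the groups some members tended to be high or low in the same libraries, given here as a description of 8 pairings chosen after the values were seen. The library with the highest OSGIN1 was also the one with the highest HMOX1 in 10 of 12 groups, and the lowest agreed in 11. GCLM and GCLC shared their highest library in 11 groups, as did TXNRD1 and GCLM, and NQO1 and SRXN1 did so in 10. The library highest in OSGIN1 was the lowest in GCLC in 10 groups, and that lowest in HMOX1 was the highest in GCLM in 9. The lowest NQO1 and the highest GCLC fell in the same library in 6 groups.

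The GC content and length of the members' transcripts are set beside this pattern. OSGIN1 and HMOX1 have the most GC-rich canonical transcripts among the members, at 64.7% and 57.7%, SRXN1 stands at 51.7%, and the other 6 lie between 37.3% (GCLM) and 44.2% (GCLC). NQO1 and PRDX6, at 43.8% and 43.9%, lie below GCLC. Their deviations from the group means went with those of OSGIN1 (r = 0.70 and 0.64 over the 42 libraries) and against those of GCLC (r = −0.61 and −0.63). TXNRD1, also at 43.8%, went with GCLC (r = 0.84) and against OSGIN1 (r = −0.66). The transcripts of HMOX1, PRDX6, OSGIN1, NQO1 and SRXN1 are 1554 to 2528 nt long. Those of GCLC, TXNRD1 and GCLM are 3785 to 4883 nt long, and that of SOD2 is 14167 nt long. Over 10342 genes, the deviation of a library from its group mean correlated with GC content with r from −0.81 to 0.82, above 0.5 in 14 libraries and under −0.5 in 15. The correlation with log2 transcript length ran from −0.62 to 0.64. These are descriptions across genes, which are not independent replicates. The part of this variation in each result was not tested beyond the corrected fits given beside it.

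**Figure D4:**
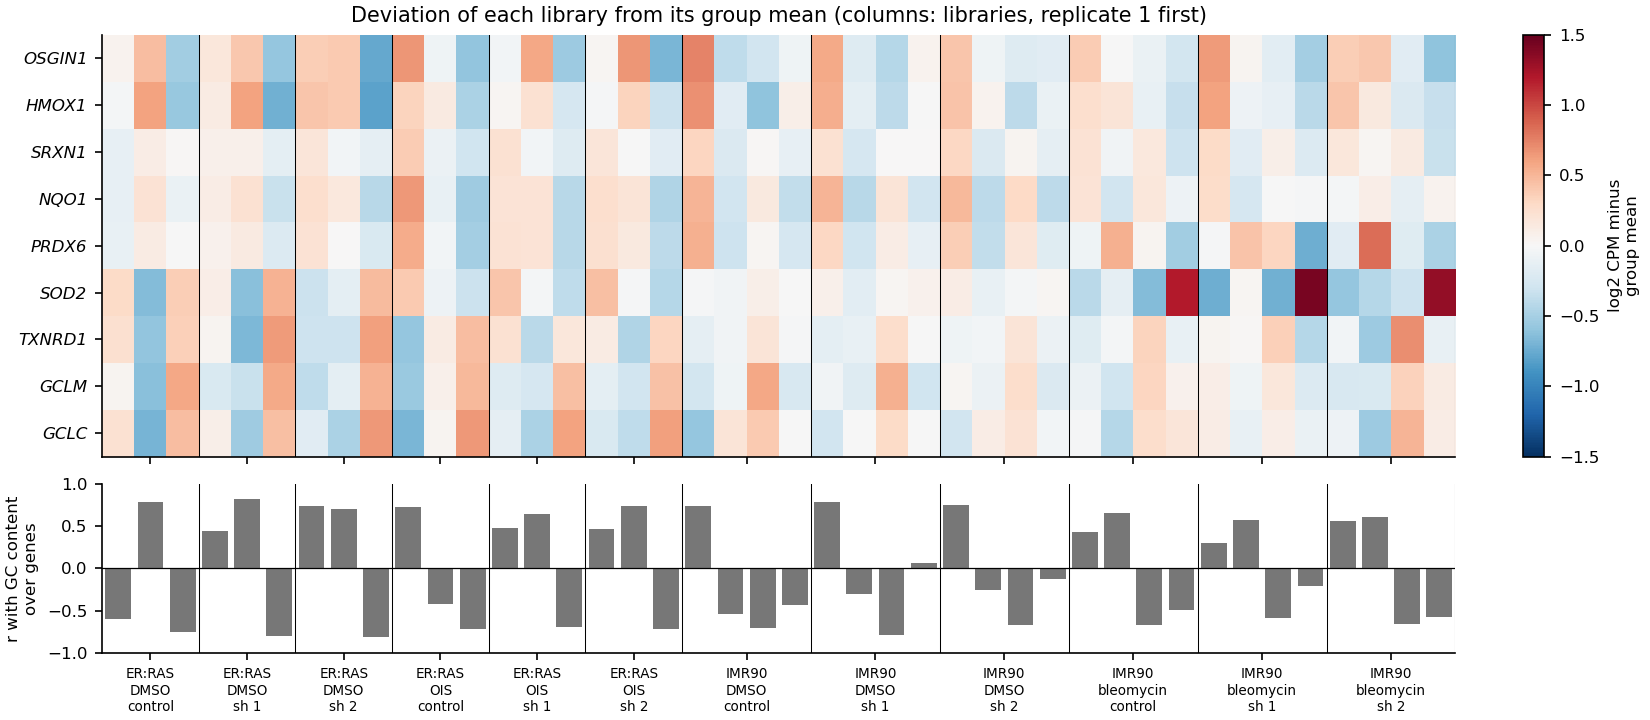
Deviation of each library from its group mean in log2 CPM for the 9 genes (upper panel, red above and blue below the mean), over the correlation r of that library's deviations with transcript GC content across genes (lower panel). OSGIN1 and HMOX1 at the top and GCLM and GCLC at the bottom take opposite colours in most libraries, and the darkest cells are SOD2 in replicate 4 of the bleomycin groups.

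The regulators of the pathway were read from a wider list of 67 redox genes, of which 64 were tested. NFE2L2 itself measured 132, 67.7 and 196 CPM with DMSO and 38.4, 85.3 and 114 CPM in OIS, which overlap (log2 fold change −0.84, adjusted p = 0.31). With bleomycin NFE2L2 was at 121, 99.8, 195 and 236 CPM against 101, 170, 209 and 179 CPM (−0.06, adjusted p = 0.92). The mRNA level of NFE2L2 says nothing on the stability of its protein. KEAP1 and BACH1 were not called either: KEAP1 gave 0.34 in OIS and −0.05 with bleomycin, and BACH1 −0.12 and −0.67.

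The small MAF proteins are the DNA-binding partners of NRF2 and of BACH1, and the genes of MAFF and MAFK rose in both models. MAFF measured 64.2, 91.9 and 68.6 CPM with DMSO and 978, 613 and 372 CPM in OIS (log2 fold change 3.01, SE 0.32, adjusted p = 3.3e-06). With bleomycin MAFF went from 56.8, 38.6, 46.9 and 44.01 CPM to 146, 140, 116 and 137 CPM (1.51, SE 0.22, adjusted p = 1.7e-05). Neither pair of groups overlapped, and the MAFF responses differed between models by 1.59 (adjusted p = 0.0027). MAFK rose by 1.12 in OIS and 0.93 with bleomycin, and MAFG by 0.72 in OIS, with 0.15 (adjusted p = 0.56) with bleomycin. Of 8 regulators 3 rose in OIS, where 15.5% of all genes were called higher, and 2 rose with bleomycin, where 15.4% were, and none fell.

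Of the 64 genes, 12 rose and 11 fell in OIS and 18 rose and 4 fell with bleomycin. Of all genes tested, 15.5% were called higher and 20.2% lower in OIS and 15.4% and 15.8% with bleomycin, and the OIS counts lie near these shares. The counts of the role groups that follow are to be read against the same shares, and none was tested against them. The median log2 fold changes of the 64 genes were 0.17 and 0.14, against −0.08 and −0.01 over all genes. The counts moved with the processing: in OIS a fit of the 6 libraries alone left 7 higher and 5 lower, the GC and length correction gave 24 and 20, and 7 were lower without 4OHT replicate 2. Over all genes the fit of 6 libraries called 1285 higher and 1626 lower of 13507, and the correction 3839 and 4043 of 14297. With bleomycin 11 were higher without DMSO replicate 4, and 9 were lower after the GC and length correction, as were 3114 of all 14783 genes. Of the 64 genes 11 were called in both models, 9 of them in the same direction, 12 were called in OIS alone and 11 with bleomycin alone, which is no test of a difference. Such a test called 5 responses as higher in OIS and 11 as lower, 16 of 64 where 20.3% of all genes were called.

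The largest falls were in extracellular enzymes. SOD3, the secreted superoxide dismutase, went from 67.03, 102 and 67.05 CPM to 0.541, 1.12 and 1.01 CPM in OIS (log2 fold change −6.51, SE 0.43, adjusted p = 2.1e-08). With bleomycin SOD3 fell from 100, 58.5, 61.2 and 60.2 CPM to 13.2, 16.3, 9.02 and 10.1 CPM (−2.55, SE 0.28, adjusted p = 9.1e-07). GPX3, the plasma glutathione peroxidase, fell by 5.20 in OIS (adjusted p = 1.2e-05) and by 1.43 with bleomycin (adjusted p = 0.00083). Both genes fell in both models and further in OIS, by a difference of −3.90 for SOD3 (adjusted p = 2.4e-07) and −3.72 for GPX3 (adjusted p = 4.4e-05). CAT, encoding catalase, fell by 0.56 in OIS.

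Among thioredoxin and peroxiredoxin genes, 3 of 12 rose and 1 fell in OIS, and 5 rose and 1 fell with bleomycin (of all genes, 15.5% and 20.2% in OIS and 15.4% and 15.8% with bleomycin). PRDX1 rose in both, by 1.31 (adjusted p = 0.0012) and 0.69 (adjusted p = 0.0070), and PRDX2 rose in OIS by 1.14 with overlapping groups. TXNIP, an inhibitor of thioredoxin, fell by 0.80 with bleomycin (adjusted p = 0.00040). SESN1, a p53-induced sestrin, fell by 1.13 in OIS (adjusted p = 0.0035) and rose with bleomycin, a difference of −1.56 (adjusted p = 2e-05), and SESN2 rose with bleomycin by 0.76, a difference of −1.33 (adjusted p = 0.011).

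Among 13 glutathione genes, 1 rose and 2 fell in OIS, and 6 rose and 1 fell with bleomycin. SLC7A11, the cystine importer that feeds glutathione synthesis, measured 8.73, 17.4, 33.9 and 15.6 CPM with DMSO and 84.0, 23.7, 132 and 115 CPM with bleomycin (log2 fold change 2.19, SE 0.56, adjusted p = 0.0043), where bleomycin replicate 2 fell within the DMSO range. In OIS SLC7A11 was at 4.42, 2.58 and 5.51 CPM against 15.9, 4.50 and 21.9 CPM and was not called, and the difference between models was −3.99 (SE 1.11, adjusted p = 0.0089). SLC7A11 and GCLM, both of glutathione supply, differed between models in opposite directions. GSTO1, a glutathione transferase, rose in OIS from 159, 228 and 189 CPM to 1825, 791 and 481 CPM (2.31, adjusted p = 0.00061), GSTM2 fell by 1.91 there (adjusted p = 0.00086), and MGST1 rose with bleomycin by 1.27 (adjusted p = 2.1e-05).

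Of 10 quinone and carbonyl reductases, 2 rose and 3 fell in OIS and 2 rose and 1 fell with bleomycin. AKR1B1, aldose reductase, rose in both models, by 2.10 (adjusted p = 0.0011) and 1.89 (adjusted p = 9.6e-05). AKR1C3 fell in both, by 4.39 (adjusted p = 1.2e-06) and 1.33 (adjusted p = 0.00090), AKR1C1 fell by 1.83 in OIS (adjusted p = 0.00066), and AKR1B10 rose with bleomycin by 1.26 (adjusted p = 0.014). The AKR1C genes are near-identical in sequence, so the split of reads among them is uncertain. In the NADPH group 2 of 6 rose in OIS, TKT by 0.92 and IDH1 by 0.83, and none was called with bleomycin. In the heme and iron group ABCC1 fell by 0.83 and SLC48A1 by 0.79 in OIS, and ABCC2 rose by 1.22 with bleomycin, out of 8 genes.

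Among 4 tested sources of oxidants, XDH, encoding xanthine dehydrogenase, rose from 0.815, 1.14 and 1.30 CPM to 25.5, 28.3 and 27.6 CPM in OIS (log2 fold change 4.54, SE 0.26, adjusted p = 4.9e-09). With bleomycin XDH rose from 0.538, 0.504, 0.587 and 0.474 CPM to 3.45, 2.18, 2.76 and 1.04 CPM (2.13, SE 0.40, adjusted p = 0.00030), a smaller response by 2.49 (adjusted p = 0.00030). MAOA, a monoamine oxidase, fell by 1.42 in OIS (adjusted p = 0.019) and rose with bleomycin by 0.90 (adjusted p = 0.024).

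COPB2 depletion called none of the 64 genes in any of its 8 comparisons with edgeR's test, which called 0.00676% to 0.224% of all genes. Under depletion the wider list gave 11 higher and 12 lower in OIS with shRNA 1 and 10 and 13 with shRNA 2, and with bleomycin 19 and 6 and 27 and 7. Over all genes, 2196 were higher and 3076 lower of 14297 in OIS with shRNA 1, and 2132 and 3148 with shRNA 2. With bleomycin 2579 were higher and 2624 lower of 14783 with shRNA 1, and 3205 and 2710 with shRNA 2. The list was not tested against these counts.

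**Figure D5:**
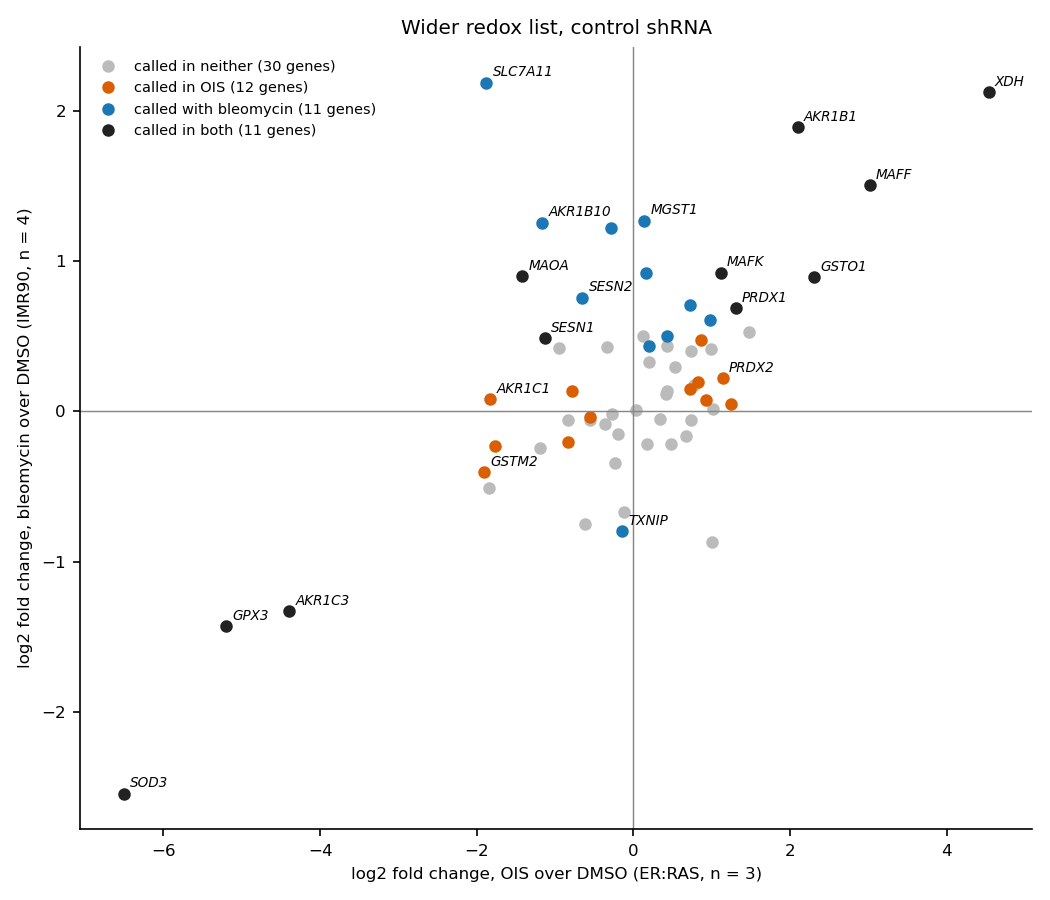
Log2 fold change in OIS (horizontal axis) against that with bleomycin (vertical axis), control shRNA, for the 64 tested genes of the wider redox list, coloured by where they were called. SOD3, GPX3 and AKR1C3 lie low on both axes, XDH, MAFF and AKR1B1 high on both, and SLC7A11 lies at 2.19 with bleomycin and below 0 in OIS.

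The genes whose group means most resembled those of 4 members over the 12 groups were named by correlation alone, among 10497 genes with at least 100 counts on average. NQO1 was closest to MBOAT7 and PUDP (r = 0.989 for both), HMOX1 to OSER1-DT (r = 0.982) and EEF1A1 (0.981), SOD2 to TMEM68 and EIF5A2 (0.968 for both), and PRDX6 to SMIM29 (0.950) and UQCC1 (0.948). The 12 points share lines, treatments and the base composition of libraries.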

How the data were processed

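The authors deposited a table of raw read counts per gene symbol for 42 libraries, made by poly(A) selection, directional library preparation and single-end sequencing, with no normalization. The study's methods name Tophat, hg19, Ensembl genes and HTSeq, whereas the submitters' processing notes name DRAGEN, STAR 2.7.8a, DESeq2 1.32.0 and hg38. The order of genes in the table followed GRCh38 in 190 and GRCh37 in 45 of the pairs that tell both builds apart, so no coordinate comes from the table, and those given are RefSeq's on GRCh38.p14.

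Counts were filtered by expression, TMM-scaled and tested with edgeR 4.0.16 (R 4.3.3, robust quasi-likelihood F-test, two-sided, called at an adjusted p under 0.05), in 1 fit of 18 ER:RAS libraries, 1 of 24 IMR90 libraries and, for comparisons between models or lines, 1 of all 42. CPM values used TMM factors over all libraries, and log2 values a prior count of 2. The code was tested on simulated data. The labels do not say whether replicates were separate cultures. A legend of the study, for gene-set plots after COPB2 knockdown in both models, gives n = 3 and counts independent experiments. The table holds 4 libraries in each IMR90 group. The p-values measure the spread between these samples, part of which may be technical.

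Members and gene lists were chosen with earlier results of these data known. Beside the 9 members and NFE2L2, KEAP1 and BACH1, the text names up to 3 called genes with the largest change per role of the wider list and comparison, 2 genes of like pattern for each of NQO1, HMOX1, SOD2 and PRDX6, and 5 inflammatory genes fixed beside SOD2, with the fibroblast, endothelial, epithelial and leukocyte marker lists as sums. A further gene of the set is not reported here. Alternatives were DESeq2 1.42.0 size factors and Wald test, no filter, a fit of the compared libraries alone, the replicate number as a block, and leaving out each library. Added after seeing the data were a GC and length correction (transcript values for 82.1% of symbols), the same with the block, and leaving out replicate 4 of the bleomycin groups. Same-numbered libraries deviated together (every r over 0.1) in COPB2 depletion with bleomycin, in depletion of IMR90 cells with DMSO, and in OIS under either COPB2 shRNA, and this pairing was taken from the data alone.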

Additional observations from a re-analysis of the deposited data

Results flagged for a closer look

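In 4 of 54 pairs of a member and a group of 4 libraries, 1 library stood apart from the rest by Dixon's criterion, which flags about 1 in 20 groups by chance. SOD2 was at 2894 CPM in bleomycin replicate 4 with the control shRNA and at 3308 CPM in replicate 4 with shRNA 2. PRDX6 was at 1381 CPM in bleomycin replicate 2 with shRNA 2. TXNRD1 was at 563 CPM in replicate 3 of IMR90 with DMSO and shRNA 2.

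The OIS response minus the bleomycin response passed edgeR's test of the difference itself for 2 members, OSGIN1 (−1.71) and GCLM (1.42), as log2 fold changes. It did so for 15 genes of the wider list among those named. The response was higher in OIS for XDH (2.49), NOX4 (1.94), MAFF (1.59) and GSTO1 (1.51). It was lower in OIS for SLC7A11 (−3.99), SOD3 (−3.90), GPX3 (−3.72), AKR1C3 (−3.01), AKR1B10 (−2.34), MAOA (−2.28), AKR1C1 (−1.84), SESN1 (−1.56), GSTM2 (−1.45), SESN2 (−1.33) and MGST1 (−1.05). NOX4, an NADPH oxidase, was at 2.26, 3.44 and 3.99 CPM in OIS against 1.17, 0.823 and 2.45 CPM with DMSO, and at 1.00, 0.573, 1.44 and 0.881 CPM with bleomycin against 0.837, 2.02, 2.05 and 2.00 CPM. Neither NOX4 response was called by itself.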

How the results depend on the processing

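No member value that had passed the test changed direction under any alternative run. The count of members called with bleomycin was 3, and 6 with the replicate block, the GC and length correction or both. Of all 14783 genes, 4614 were called at first, and 6050, 6878 and 7778 under these alternatives. Under COPB2 depletion the member count went from 7 over both hairpins to 11 (DESeq2's Wald test), 13 (block), 12 (GC and length) and 14 (both). All genes called under shRNA 1 went from 5203 to 5511, 6632, 7491 and 8313. Under shRNA 2 they went from 5915 to 6313, 7472, 7957 and 8754. The 2 called differences between models became 1 in a fit of the compared libraries alone and 4 with correction and block. All genes called there went from 3101 of 15299 to 2090 of 14585 and 6332 of 15299. With correction and block, depletion in OIS called 2 values (OSGIN1 with each hairpin) in place of 0, and the comparison of lines 1 (TXNRD1, adjusted p = 0.019) in place of 0. Over all genes, depletion in OIS then called 326 (shRNA 1) and 564 (shRNA 2) of 14297, in place of 20 and 32. The comparison of lines called 393 of 15299, in place of 53. Leaving out 1 library gave 3 to 5 member calls in OIS, 2 to 4 with bleomycin, 0 to 2 for the difference between models, 8 to 11 in OIS and 5 to 9 with bleomycin under depletion, and 0 for depletion, its interactions and the lines.

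Of 173 member values, 160 kept their call or stayed uncalled with the replicate block, and 13 gained a call. These values include PRDX6 for depletion and for the lines. Values uncalled in both fits were counted as kept if they moved by less than their SE, whatever their direction. In the comparisons in which numbers paired the libraries, the block changed the call of TXNRD1 in OIS under each COPB2 shRNA and no other. Over all 14297 genes it called 7612 (shRNA 1) and 7588 (shRNA 2) in OIS, in place of 5272 and 5280. Elsewhere not every same-numbered pair deviated together, with r from −0.82 to 0.67 in OIS with the control shRNA and from −0.33 to 0.95 for COPB2 depletion in OIS. In OIS with the control shRNA the block gave 6 member calls in place of 4. Of all 14297 genes, it called 7274 there in place of 5098. Of the same values, 164 kept their call with DESeq2's Wald test, 165 with DESeq2's size factors, 169 with no filter and 169 in fits of the compared libraries alone.

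In the wider list, OIS calls higher went from 12 to 7 (compared libraries alone), 22 (block), 24 (GC and length) and 28 (both), and calls lower from 11 to 5, 20, 20 and 25. Over all genes, OIS calls higher went from 2210 to 1285, 3191, 3839 and 4469. Calls lower went from 2888 to 1626, 4083, 4043 and 4741. Bleomycin calls lower in the list went from 4 to 9 with the correction, with or without the block. Over all genes they went from 2339 to 3114 with the correction and 3549 with both. Without 1 library the 4 counts of the wider list ran from 8 to 17, 7 to 13, 4 to 5 and, for bleomycin calls higher, 11 to 20. DESeq2's size factors moved the median of all genes in OIS from −0.08 to 0.04 on the log2 scale. Members had at least 51 counts in every library, and no alternative varied the depth. The cause of each shift was not tested.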
